A study of Mus musculus with 21 samples.

Results

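Skin of mice with a transplantation disease that resembles systemic sclerosis was compared between a group given mCAN10, an antibody against the interleukin-1 receptor accessory protein (IL1RAP), and a group given an isotype control antibody. The comparison holds 8 of the 21 RNA libraries of the series, 4 in each group, and it was described over the 18684 gene symbols with enough counts for a test, out of 32641 with any count in these 8 libraries. Recipients in both groups were BALB/c mice, 8 weeks old, which were irradiated with 700 cGy and given bone marrow from B10.D2 donors 6 hours later. Donor and recipient share the H-2d haplotype and differ elsewhere in the genome, and the transplant is called allogeneic. Antibodies were injected into the peritoneum 2 times a week from day 21, with 20 mg/kg first and 10 mg/kg later, and skin was taken at week 7. The isotype antibody was a mouse IgG2a of the LALA-PG form, a change to the constant part that removes most binding to Fc receptors. RNA came from a skin area 3 mm across, so each library mixes epidermis, dermis, hair follicles, fat and whatever muscle lay beneath. The labels do not say whether each library came from its own mouse, nor the sex of the animals, and p-values measure the spread between these samples. Values from syngeneic mice (BALB/c marrow, isotype antibody, 4 libraries of the same counting run) are quoted as levels only, since donor strain also parts them from the allogeneic mice. They were scaled in a separate step together with the 8 libraries, so their scale is not exactly that of the other values.

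IL1RAP is the shared co-receptor of the IL-1 family. A ligand such as IL-1 alpha, IL-1 beta, IL-33 or one of the IL-36 cytokines first binds its own receptor, IL1RAP then joins, and the pair recruits the adaptor MYD88 and the kinases of the IRAK family, which turn on NF-kB and MAP kinase targets. In skin, IL-36 is made mostly by keratinocytes and is best known from pustular psoriasis, IL-33 is an alarm signal of stromal cells and keratinocytes, and IL-1 acts on almost every cell type. IL-18 is a family member that signals without IL1RAP.

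The 8 libraries held between 18556762 and 29551431 counts. The tissue markers of skin were present in each library: Krt5 ran from 5603 to 8093 CPM (counts scaled to a common library size with TMM factors) with isotype and from 4371 to 6322 CPM with anti-IL1RAP, Krt10 from 15932 to 24229 and 6164 to 9542 CPM, Col1a1 from 209 to 1206 and 781 to 2311 CPM, and Ptprc, which marks leukocytes, from 35.1 to 95.6 and 42 to 84.7 CPM. Some libraries stood apart. Skeletal muscle genes took 0.00437% of the counts in isotype replicate 1 and 6.52% in isotype replicate 3, and 0.596% to 3.37% in the anti-IL1RAP libraries. Hair keratin genes summed to 683 CPM in isotype replicate 1 and to between 31.7 and 55.9 CPM in the other 7 libraries. Y-linked genes had counts in anti-IL1RAP replicate 2 (15.0 CPM in sum) and were at 0 in the other 7, and the part of sex in the results was not tested. The first principal component (41.1% of the variance) placed the isotype libraries between 21.9 and 84.5 and the anti-IL1RAP libraries between -59.7 and -46.7, and the second (32.8%) ran from isotype replicate 3 at -67.6 to isotype replicate 1 at 113. The isotype libraries were the more variable group, with a median SD of log2 CPM per gene of 0.316 against 0.191. The plot of marker list sums shows these contents library by library.

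**Figure D1:**
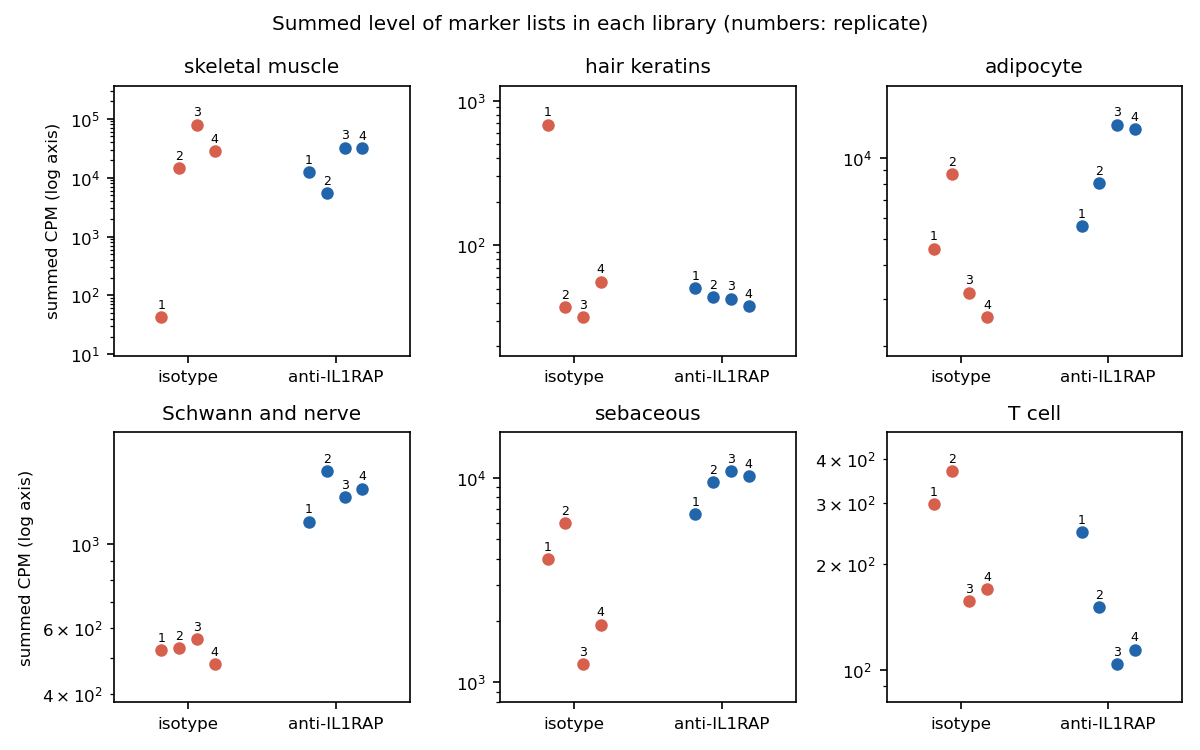
Summed CPM (log axis) of 6 marker lists in the 4 isotype and 4 anti-IL1RAP libraries, with the replicate number beside each point. Isotype replicate 1 lacks skeletal muscle (42.3 CPM) and is high in hair keratins (683 CPM), and the Schwann and nerve sums (481 to 559 against 1142 to 1555 CPM) do not overlap between groups.

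Of the 18684 genes tested, 2956 changed at an adjusted p under 0.05 (edgeR's quasi-likelihood test), which is 15.8% of them. The calls split evenly, with 1478 genes higher (7.91%) and 1478 lower (7.91%) under anti-IL1RAP, and the median log2 difference over all genes was -0.02. Changes of at least 4-fold numbered 211 upward and 208 downward, and those of at least 16-fold 32 upward and 59 downward. The 4 libraries of one group lay wholly above or below the 4 of the other for 24.7% of all genes tested (12.9% higher, 11.8% lower) and for 2873 of the 2956 called genes. Leaving out a library moved the total by over 1.5 times in 3 cases, to 1625 without anti-IL1RAP replicate 2, 1377 without replicate 3 and 1342 without replicate 4. Leaving out any 1 of the other 5 libraries gave between 2003 and 3180 calls, and isotype replicates 1 and 3 left out together, the extremes of muscle content, gave 2556. No called gene turned direction in any of these fits. Among the lists described below, the share of members called was between 15.4% and 20%, close to the 15.8% over all genes, for NF-kB targets, dendritic cells, MHC class I, the cell cycle, collagens, matrix proteins, endothelium, the Wnt pathway, adipocytes, inflammasome genes, and glycolysis and hypoxia genes. The share was below 15.8% for gamma-delta T cell and Skint genes (11.1%), MHC class II (9.09%), immediate early genes (8.7%) and mast cells (7.69%). Monocyte and eosinophil attractants (7.69%), cytotoxic genes (6.25%) and macrophages (4%) were below it too. A called gene named from such a list does not describe the list. Log2 differences below are anti-IL1RAP minus isotype, with their SE and adjusted p over all genes tested.

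**Figure D2:**
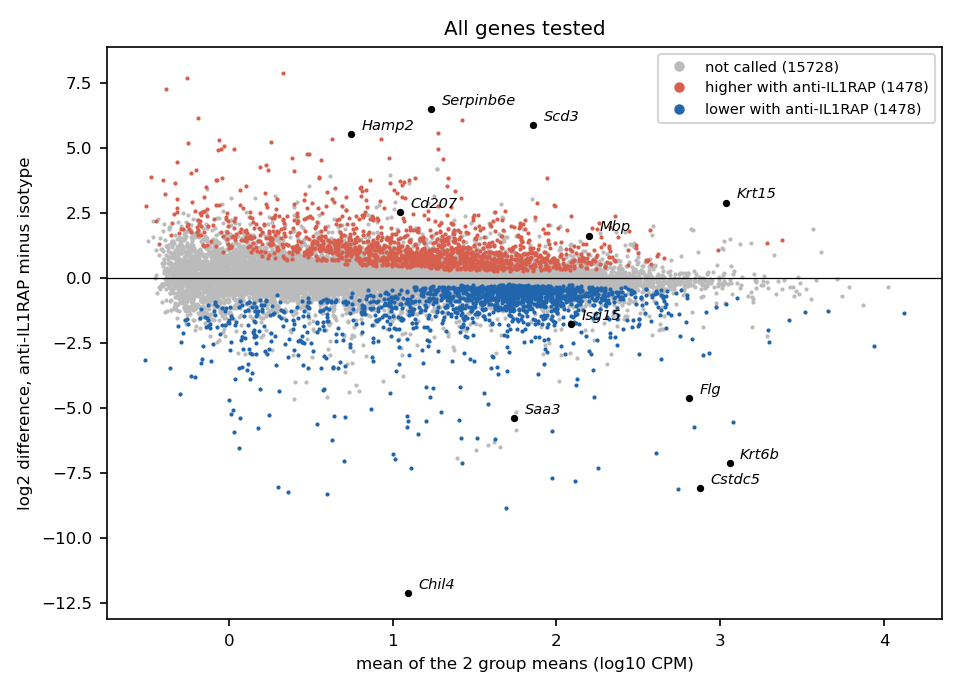
Log2 difference (anti-IL1RAP minus isotype) against mean level (log10 CPM) for the 18684 genes tested, coloured by call, with 12 genes named. Called genes are as many above 0 (1478) as below (1478), and the points farthest from 0 lie below it. The fitted value of Chil4, which had no count in the anti-IL1RAP libraries, depends on the prior count and is no estimate.

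**Figure D3:**
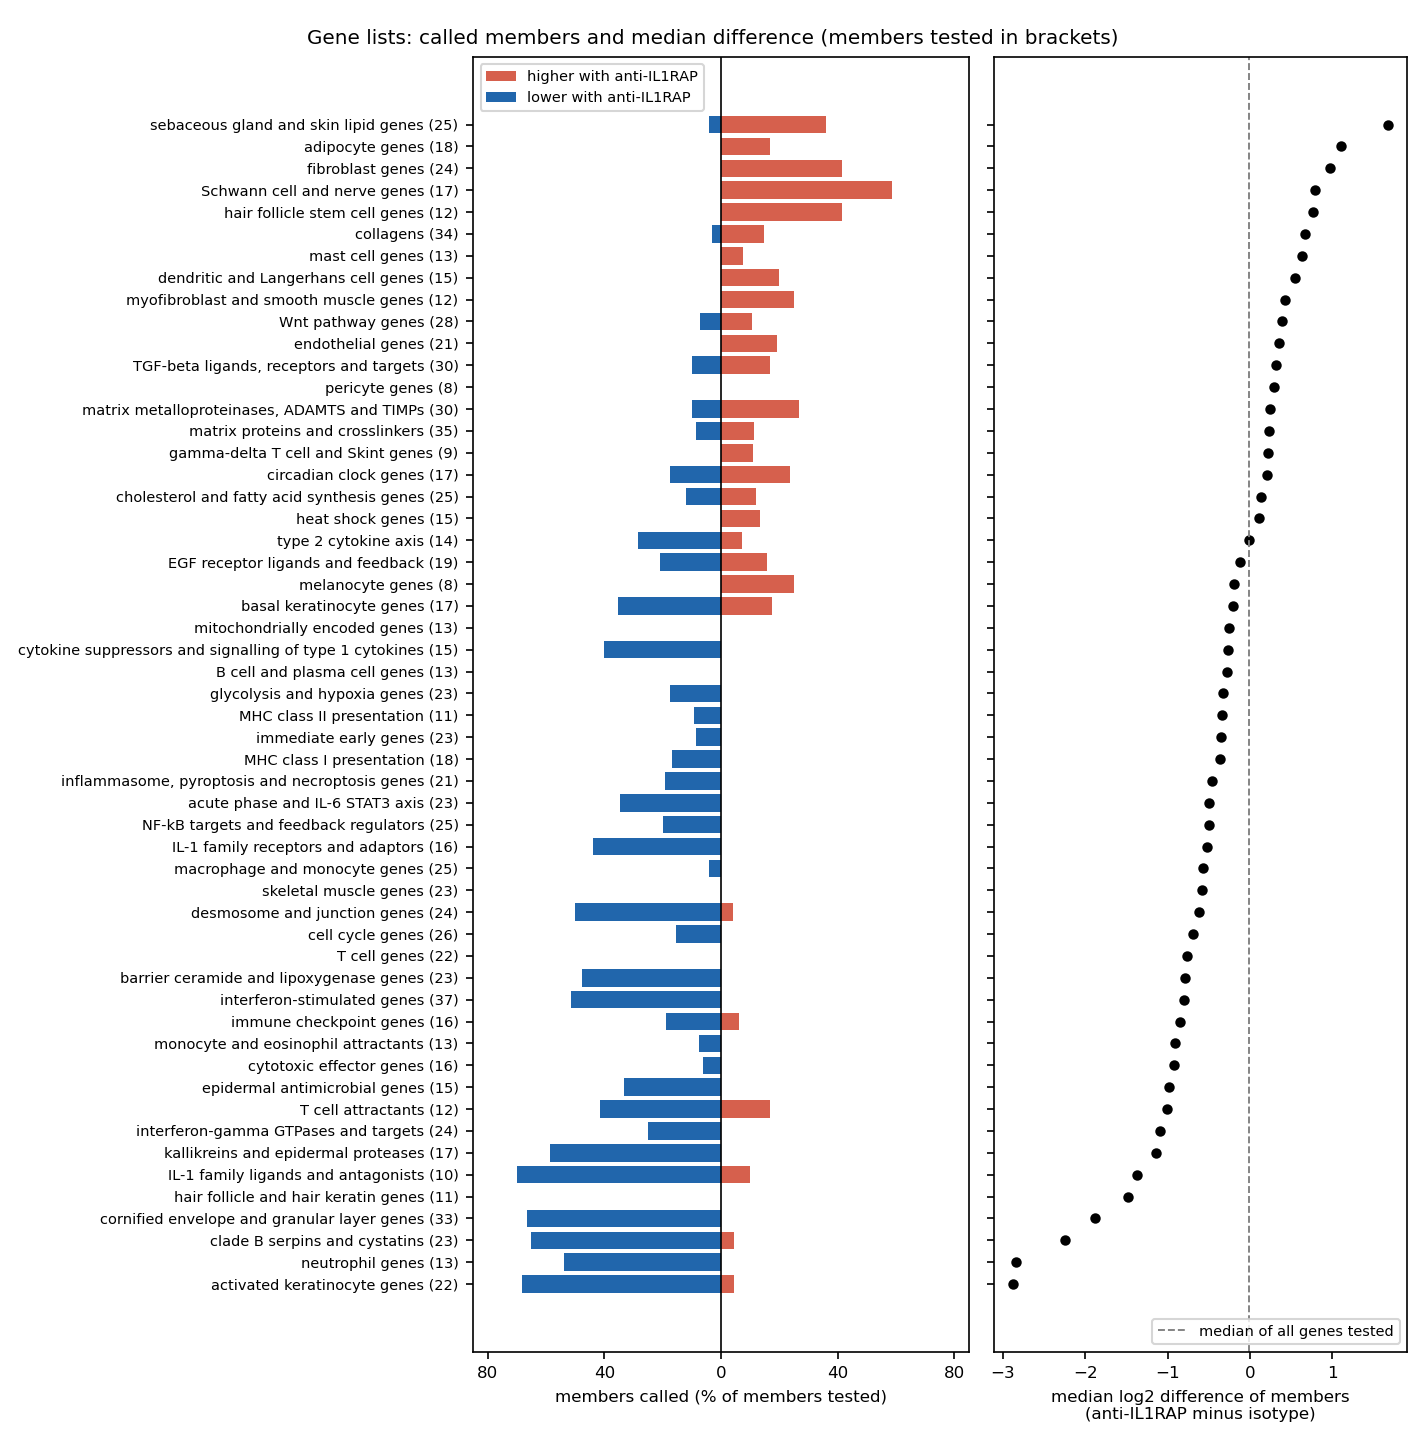
For each gene list with at least 8 members tested, the share of members called higher (red, right) or lower (blue, left) under anti-IL1RAP, and the median log2 difference of its members (dots; dashed line, median of all genes tested). Keratinocyte, neutrophil, interferon and protease inhibitor lists lie on the lower side, and Schwann cell, fibroblast, sebaceous and follicle stem cell lists on the higher side.

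Among the ligands and antagonists of the IL-1 family, 7 of 10 genes tested fell and 1 rose, with a median of -1.37. The IL-36 agonist genes Il36a, Il36b and Il36g fell. Il36a stood at 35.6, 10.7, 26.6 and 48.2 CPM in isotype replicates 1 to 4 and at 0.76, 2.84, 2 and 0.943 CPM in anti-IL1RAP replicates 1 to 4, a difference of -4.19 ± 0.59 (adjusted p = 0.00435). Il36rn, which encodes the natural antagonist of the IL-36 receptor, fell as well, from 351, 232, 353 and 481 CPM to 64.7, 91, 75.3 and 60.8 CPM (-2.28 ± 0.24, adjusted p = 0.00177). For both genes every anti-IL1RAP library lay below every isotype library. Il1rn, the antagonist of the IL-1 receptor, fell by less (-0.82 ± 0.12, adjusted p = 0.00493). Il18, whose product does not use IL1RAP, also fell, from 63.7, 76.1, 55.2 and 113 to 32.4, 37.2, 30.9 and 26.6 CPM (-1.28 ± 0.22, adjusted p = 0.00931). Il1b (-1.03 ± 0.68) and Il33 (0.36 ± 0.28) did not pass the test. Il1f10, an IL-38 gene of differentiated epidermis, was the 1 member that rose (1.70 ± 0.41, adjusted p = 0.0273), and that call was lost without isotype replicate 4 or any 1 of anti-IL1RAP replicates 1, 2 and 3 (adjusted p up to 0.0773), and the higher count was 2 without isotype replicate 1. The call of Il1a (-1.46 ± 0.37, adjusted p = 0.0323) was lost without any 1 of the 4 anti-IL1RAP libraries (up to 0.0976).

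Of 16 receptors and adaptors tested, 7 fell and none rose (median -0.52). The target of the antibody itself, Il1rap, was measured at 22.4, 24.8, 21.6 and 26.5 CPM with isotype and 18.4, 21.7, 17.5 and 14.4 CPM with anti-IL1RAP, a difference of -0.40 ± 0.14 that did not pass (adjusted p = 0.0885). An antibody against the protein need not change its mRNA, so these values are no check of the treatment. The IL-36 receptor gene Il1rl2 fell (-0.68 ± 0.12, adjusted p = 0.00804), while Il1r1, the IL-1 receptor, stood at 21.3 to 32.9 against 31.8 to 37.1 CPM and the IL-33 receptor Il1rl1 at 3.67 to 13.2 against 5.55 to 9.61 CPM, neither passing. In the signalling chain, Myd88 (-0.63 ± 0.11), the kinases Irak4 (-0.74 ± 0.10) and Irak2 (-0.71 ± 0.09) and the ubiquitin ligase Traf6 (-1.05 ± 0.20) fell, with adjusted p from 0.00363 to 0.013. Irak2 stood at 41.9, 49.1, 46.5 and 49.5 CPM in the isotype libraries and 26, 30.4, 27.9 and 30.2 CPM in the treated ones, with no overlap. The IL-18 receptor chains Il18r1 (-1.12 ± 0.25) and Il18rap (-1.80 ± 0.41) fell too, although both calls were lost without anti-IL1RAP replicate 2 or 4, and that of Il18r1 also without replicate 3 (adjusted p up to 0.0737).

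Downstream, 5 of 25 NF-kB targets and feedback regulators fell and none rose (median -0.49), and without isotype replicate 3 the count was 8. Ptges, the inducible synthase of prostaglandin E, went from 162, 151, 169 and 182 CPM to 56.4, 85.9, 72.7 and 65.5 CPM (-1.24 ± 0.14, adjusted p = 0.00216), and the transcription factor Cebpb from 287, 281, 306 and 307 to 175, 183, 197 and 163 CPM (-0.71 ± 0.10, adjusted p = 0.00394). Tnf was low in both groups (4.39 to 10.9 and 2.75 to 5.36 CPM) and did not pass. Of 23 genes of the acute phase and the IL-6 and STAT3 axis, 8 fell and none rose (median -0.49). They included Stat3 itself, at 285, 270, 310 and 270 CPM against 184, 160, 154 and 167 CPM (-0.77 ± 0.10, adjusted p = 0.00353), its feedback inhibitor Socs3 (-0.82 ± 0.13, adjusted p = 0.00729) and Bcl3, a nuclear partner of NF-kB (-1.03 ± 0.15, adjusted p = 0.00494). The serum amyloid gene Saa3, an acute phase protein also made in skin, ran widely with isotype at 99, 231, 87.9 and 14.3 CPM and stood at 6, 2.12, 1.16 and 0.808 CPM under anti-IL1RAP (-5.40 ± 0.97, adjusted p = 0.0103). The groups did not overlap, yet the isotype libraries alone spanned more than 10-fold. Il6 had too few counts for the test, at 0.0601 to 1.46 and 0.14 to 0.449 CPM.

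Neutrophils enter skin along chemokines that bind CXCR2, and IL-1 and IL-36 are known inducers of these chemokines. The receptor gene Cxcr2 fell from 14, 20.4, 22.3 and 20.5 CPM to 0.912, 2.34, 1.12 and 2.02 CPM (-3.58 ± 0.33, adjusted p = 0.00157). Of 23 neutrophil genes with counts, 13 had enough for the test. Of these 13, 7 fell and none rose, with a median of -2.84. They included Mmp9, the gelatinase B gene, with 128, 74.8, 89.5 and 66.7 CPM against 10.8, 9.15, 11.6 and 18.7 CPM (-2.84 ± 0.29, adjusted p = 0.00175), and the stefins Stfa1 and Stfa2, which keratinocytes also express. S100a9 (-2.97 ± 0.73, adjusted p = 0.03) and S100a8 (-2.79 ± 0.73, adjusted p = 0.0371), shared between neutrophils and inflamed epidermis, fell in the fit of all 8 libraries. Their calls were lost without any 1 anti-IL1RAP library, and that of S100a8 also without isotype replicate 1, 3 or 4 (adjusted p up to 0.101), and isotype replicate 2 was itself low (2.64 CPM of S100a9). The lineage gene Ly6g was at or near 0 in both groups (0 to 0.182 and 0 to 0.076 CPM), as was Elane (0 to 0.355 and 0.0624 to 0.419 CPM). In bulk skin, fewer cells of a type and less RNA per cell cannot be told apart, here or for any cell type below.

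Of the neutrophil attractants, 2 of 11 had enough counts to test and neither was called by edgeR (1 under 0.05 before adjustment, 1 called by DESeq2), with Cxcl1 at 4.88, 1.47, 0.772 and 1.02 CPM against 3.34, 1.16, 1.4 and 1.48 CPM. Cxcl2, the other, stood at 9.44, 1.37, 0.434 and 0.541 CPM against 0.57, 0.406, 0.186 and 0.449 CPM (-2.85 ± 1.02, adjusted p = 0.0974), with isotype replicate 1 far above the rest and overlapping groups, and the difference was -0.94 without that library. Among the 13 attractants of monocytes and eosinophils, Ccl8 fell, from 825, 1168, 989 and 773 CPM to 206, 177, 142 and 261 CPM (-2.26 ± 0.23, adjusted p = 0.00175). The highest treated library, at 261 CPM, lay far below the lowest isotype library, at 773 CPM. Ccl2, the classical monocyte attractant, did not pass (26.1 to 48.7 against 8.66 to 36 CPM). The list count rose from 1 to 3 without isotype replicate 4 and to 5 without anti-IL1RAP replicate 1. T cell attractants moved in both directions, with 5 of 12 lower and 2 higher. The interferon-induced CXCR3 ligand Cxcl11 fell from 74.7, 59.6, 40.8 and 50.3 CPM to 7.79, 5.43, 3.96 and 7.54 CPM (-3.19 ± 0.27, adjusted p = 0.00151), and its relatives Cxcl10 (-1.81 ± 0.42, adjusted p = 0.0253) and Cxcl9 (-1.97 ± 0.49, adjusted p = 0.0311) fell with it. In the other direction Ccl27a, the attractant that resting keratinocytes make for skin-homing T cells, rose from 36.1, 29.3, 12.3 and 19.2 to 75.1, 111, 104 and 94.9 CPM (1.99 ± 0.32, adjusted p = 0.00676). It is listed at a mean of 109 CPM in syngeneic skin. Without anti-IL1RAP replicate 2, 3 or 4 the lower T cell attractants numbered 2, 3 and 2, and the call of Cxcl10 was among those lost (adjusted p up to 0.0738). That of Cxcl9 was lost without isotype replicate 1, 2 or 4 or anti-IL1RAP replicate 2 or 4 (up to 0.0952). The higher T cell attractants numbered 1 without isotype replicate 2, 3 or 4 or anti-IL1RAP replicate 2, 3 or 4.

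Of 37 interferon-stimulated genes tested, 19 fell, none rose and 18 did not pass, with a median of -0.80 against -0.02 over all genes. The 4 treated libraries lay below the 4 isotype libraries for 20 of the 37, where 11.8% of all genes tested did so. Isg15, a ubiquitin-like modifier and a standard reporter of interferon action, stood at 187, 169, 221 and 182 CPM with isotype and at 75.1, 44.3, 47 and 53.7 CPM with anti-IL1RAP (-1.79 ± 0.18, adjusted p = 0.00175). Syngeneic skin had a mean of 11.9 CPM. Oas2, which makes the activator of RNase L, fell from 118, 134, 146 and 96 to 54.2, 30.1, 36.6 and 45.4 CPM (-1.57 ± 0.21, adjusted p = 0.00356). Parp9 (-1.08 ± 0.17), an ADP-ribosyltransferase, and Stat2 (-0.86 ± 0.16), a transcription factor of the type I interferon response, were lower as well, with adjusted p of 0.00676 and 0.0109. In each of these genes anti-IL1RAP replicate 1 was the highest treated library. Without anti-IL1RAP replicate 3 or 4 the list held 10 called genes, and Ifit1 (-1.32 ± 0.30, adjusted p = 0.0229), a translation blocker, was among those lost (up to 0.0743).

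Promoters of 3 members that fell together are shown because they hold the letters of an element known to mediate interferon responses. The windows run from 250 bases before the gene start to 50 bases after it, from RefSeq on GRCm38.p6, 5′ to 3′, and capitals mark 2 copies of GAAA with 2 bases of any kind between them, a core of the interferon-stimulated response element, searched on both strands (a match on the other strand reads TTTC in both places) and allowed to overlap itself. Their positions are chr4:156200769-156201068, - strand for Isg15, chr5:92348840-92349139, - strand for Cxcl10 and chr19:34640639-34640938, + strand for Ifit1.
Isg15: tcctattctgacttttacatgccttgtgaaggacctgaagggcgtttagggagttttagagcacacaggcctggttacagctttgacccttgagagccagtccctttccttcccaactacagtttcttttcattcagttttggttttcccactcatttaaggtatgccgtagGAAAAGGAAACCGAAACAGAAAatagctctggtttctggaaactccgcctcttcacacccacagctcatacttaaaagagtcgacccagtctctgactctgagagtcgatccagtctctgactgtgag
Cxcl10: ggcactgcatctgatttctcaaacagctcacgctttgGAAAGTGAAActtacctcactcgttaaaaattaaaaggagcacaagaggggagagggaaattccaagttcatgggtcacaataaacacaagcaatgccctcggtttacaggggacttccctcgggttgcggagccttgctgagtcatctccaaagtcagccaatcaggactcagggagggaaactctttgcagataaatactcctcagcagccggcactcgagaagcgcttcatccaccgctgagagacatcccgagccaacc
Ifit1: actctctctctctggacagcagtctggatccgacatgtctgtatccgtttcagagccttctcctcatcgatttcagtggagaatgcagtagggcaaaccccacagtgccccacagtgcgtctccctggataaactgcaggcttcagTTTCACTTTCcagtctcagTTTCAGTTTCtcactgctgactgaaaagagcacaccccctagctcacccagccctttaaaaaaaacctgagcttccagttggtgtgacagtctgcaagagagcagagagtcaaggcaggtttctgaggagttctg
The window of Isg15 holds 3 overlapping copies, that of Ifit1 2 copies and that of Cxcl10 1. Of the interferon-stimulated genes tested, 26 had a window in the table and 14 of these held the letters (53.8%), among them 8 of the 11 with a window that fell. The letters occur in 3.44% of all 32851 promoter windows, in 3.89% of the 12791 tested genes with a window and in 5.5% of the 1072 genes with a window that fell, over all lists and families. A match describes the sequence and does not show that a factor binds there.

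Of 24 GTPases and other genes that respond mainly to interferon gamma, 6 fell and none rose, with a median of -1.09, and the count was 0 without anti-IL1RAP replicate 2, 1 without replicate 3 and 2 without replicate 4. Ifng itself was low, at 2.96, 2.69, 2.7 and 2.16 CPM against 2.17, 0.937, 0.186 and 0.584 CPM, and did not pass (-1.42 ± 0.57). Nos2, the inducible nitric oxide synthase, fell from 45, 18.2, 25.9 and 13.3 to 10.9, 6.74, 4.47 and 5.61 CPM (-1.88 ± 0.42, adjusted p = 0.0223, up to 0.0736 without anti-IL1RAP replicate 2, 3 or 4). Antigen presentation by MHC class I had 3 of 18 genes lower, H2-T22 (-0.76 ± 0.14, adjusted p = 0.00989), Tapbp (-0.58 ± 0.14) and Tap2 (-0.49 ± 0.14), the last pair being part of the peptide loading machinery, with adjusted p up to 0.0808 and 0.113 without a library. The count was 1 without isotype replicate 1 or anti-IL1RAP replicate 2, 3 or 4, and 6 without anti-IL1RAP replicate 1. For MHC class II 1 of 11 was called, and none without isotype replicate 1 or 2 or anti-IL1RAP replicate 2, 3 or 4, the protease gene Ctss (-1.42 ± 0.36, adjusted p = 0.033, up to 0.0991 without a library), while the class II chain H2-Ab1 was 1281, 1605, 1003 and 770 CPM with isotype and 1208, 997, 542 and 835 CPM with anti-IL1RAP, with overlapping groups. Of 38 proteasome subunits 19 fell and none rose, with a median of -0.39.

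T cell genes gave no call. Of 22 tested none passed (edgeR), 5 were under 0.05 before adjustment, DESeq2 called 2, and the median was -0.76. Their summed level was 157 to 369 CPM with isotype and 104 to 247 CPM with anti-IL1RAP, overlapping. Cd3e, a chain of the T cell receptor complex, stood at 13.6, 20.7, 5.11 and 9.02 CPM against 14.3, 6.96, 3.86 and 4.4 CPM, with anti-IL1RAP replicate 1 above 3 of the isotype libraries. The checkpoint receptor gene Pdcd1 was 6.34, 19, 5.5 and 6.25 CPM against 5.78, 1.34, 0.186 and 0.673 CPM and did not pass (-2.20 ± 0.90, adjusted p = 0.133). Of 16 cytotoxic genes 1 fell, Tnfsf10, the TRAIL ligand (-0.86 ± 0.22, adjusted p = 0.0342, up to 0.101 without a library). The count was 0 without isotype replicate 2 or anti-IL1RAP replicate 2, 3 or 4, and 6 without anti-IL1RAP replicate 1. Of 25 macrophage and monocyte genes 1 fell (4% called against 15.8% over all genes). It was the lipid receptor Trem2 (-1.56 ± 0.40, adjusted p = 0.0335, up to 0.0975), with Cd68 at 50.7 to 106 against 50.8 to 88.7 CPM. Plac8 and Itgax, neither called, differed in opposite directions. Plac8 stood at 17.7 to 36 against 34.6 to 79.8 CPM (1.00 ± 0.31, adjusted p = 0.0622). Itgax stood at 33.5 to 65.9 against 10.6 to 33.2 CPM (-0.97 ± 0.36, adjusted p = 0.108). The macrophage count was 0 without isotype replicate 1 or 2 or anti-IL1RAP replicate 2, 3 or 4, 3 without isotype replicate 4 and 2 without anti-IL1RAP replicate 1. None of the 28 immunoglobulin genes or 14 T cell receptor genes tested was called by edgeR, with 9 and 3 under 0.05 before adjustment and 2 and 0 called by DESeq2. Their medians were -2.95 and -0.30, against -0.02 over all genes. The immunoglobulin genes were thus lower in the middle of the family, without a call for any member.

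Among 15 dendritic and Langerhans cell genes 3 rose and none fell. Cd207, the langerin gene of Langerhans cells, went from 1.73, 2.54, 3.67 and 5.17 CPM to 16.6, 17.9, 20 and 20.7 CPM (2.53 ± 0.31, adjusted p = 0.00299), and syngeneic skin had a mean of 9.81 CPM. Flt3, the receptor of the dendritic cell growth factor, rose from 1.96, 1.52, 0.579 and 0.902 to 4.03, 4.06, 4.1 and 4.26 CPM (1.72 ± 0.35, adjusted p = 0.0154). Cd209a, a lectin of dermal dendritic cells, rose by 3.58 ± 0.83 (adjusted p = 0.0251), with anti-IL1RAP replicate 1 at 1.82 CPM, inside the isotype range, and the call was lost without isotype replicate 1 or 4 or anti-IL1RAP replicate 2, 3 or 4 (up to 0.0704). The mast cell receptor gene Mrgprb2 was the 1 of 13 mast cell genes that rose, from 2.28, 2.18, 1.06 and 2.16 to 8.63, 9.09, 13.3 and 9.2 CPM (2.38 ± 0.28, adjusted p = 0.00252). Without isotype replicate 1 the mast cell count was 3. Skint3 was at 0.0601 to 0.456 CPM with isotype and rose to between 1.18 and 2.96 CPM (2.70 ± 0.50, adjusted p = 0.0111). Its syngeneic mean was 0 CPM. Skint1, the family member known to select epidermal gamma-delta T cells, was not called. It stood at 27.4, 26.6, 28.1 and 29.6 CPM against 16.4, 26.9, 22.5 and 22 CPM (-0.35 ± 0.15, adjusted p = 0.142). Skint genes resemble each other and reads may be split between them. Without isotype replicate 1 the gamma-delta T cell and Skint list, 1 of 9 higher, had 2.

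On the type 2 side, 4 of 14 genes fell and 1 rose. The chitinase-like gene Chil3, known from alternatively activated macrophages, stood at 67.6, 64.8, 79.8 and 81.7 CPM with isotype and 4.29, 2.75, 1.91 and 1.08 CPM with anti-IL1RAP (-4.86 ± 0.39, adjusted p = 0.00149). Its near-identical neighbour Chil4 had 19.7, 6.96, 3.33 and 69 CPM with isotype and no count with anti-IL1RAP. The exact 95% counting interval starts at 625-fold lower, and an assumed 3 counts over the treated group would give 770-fold. The assignment of reads between the 2 genes is uncertain. Il4ra (-0.83 ± 0.14, adjusted p = 0.0076) and Il13ra1 (-0.58 ± 0.11, adjusted p = 0.0112), the receptor chains for IL-4 and IL-13, fell. Arg1, the arginase that is often named beside Chil3, rose instead, from 21.8, 16, 29.3 and 16.4 to 43.7, 38.2, 48.6 and 43.1 CPM (1.05 ± 0.20, adjusted p = 0.0122). The libraries of the groups did not overlap for any of these 5 genes, and the higher count was 2 without isotype replicate 1.

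**Figure D4:**
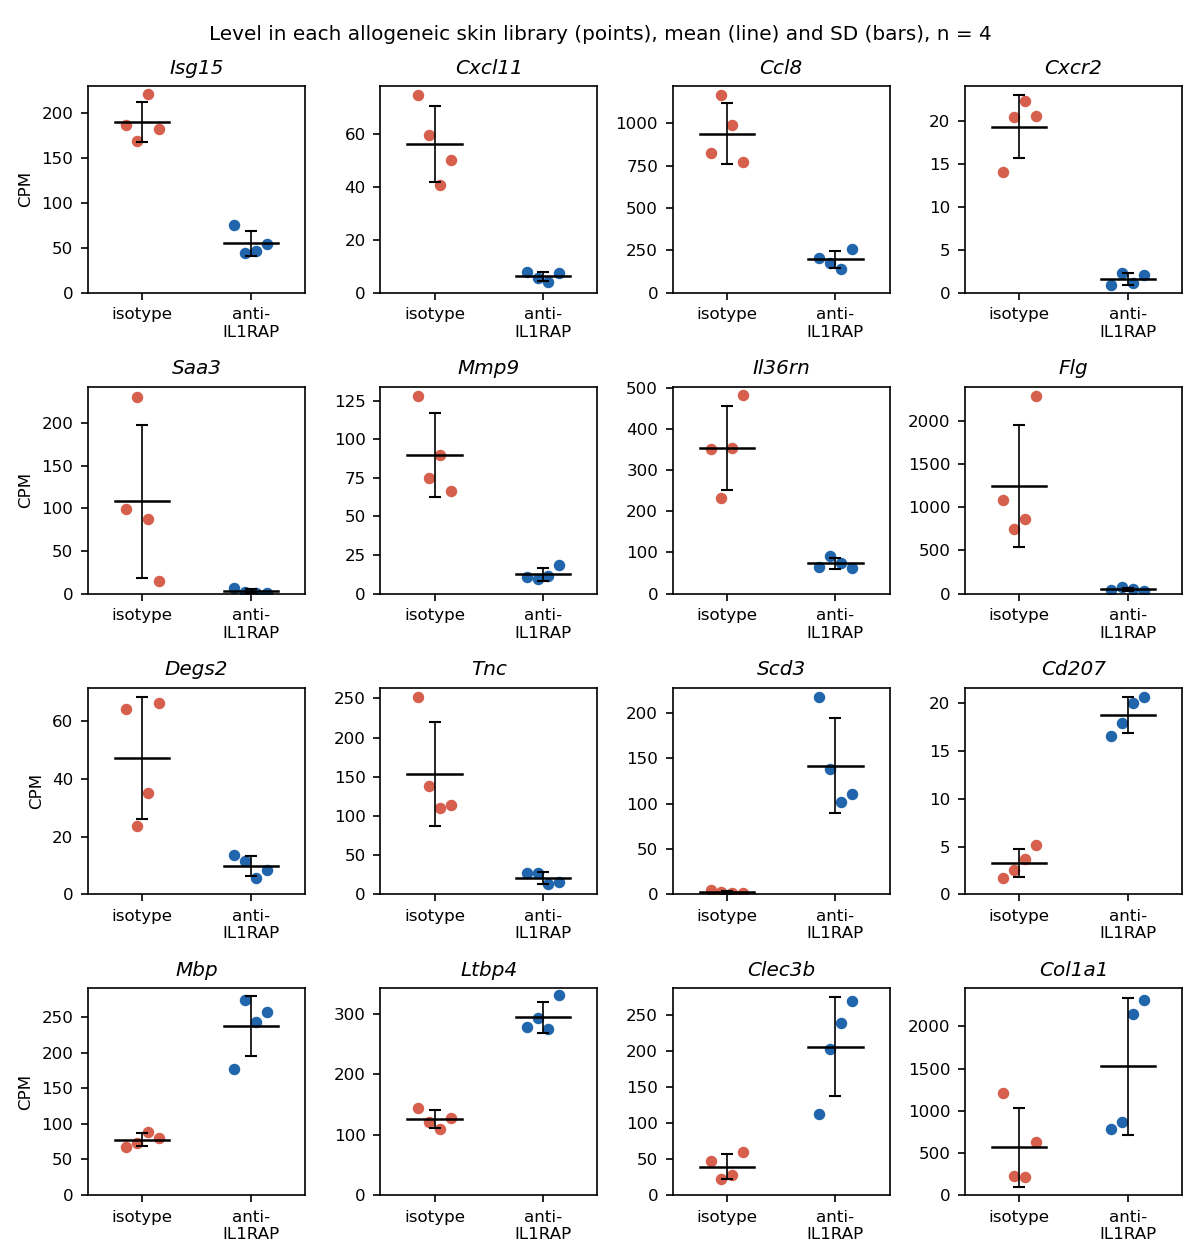
CPM of 16 genes in the 4 isotype (red) and 4 anti-IL1RAP (blue) libraries, points per library, black line the mean and bars the SD (n = 4). In 15 of the 16 panels the groups do not overlap, and in the panel of Col1a1 they do.

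Epidermal genes were lower in large numbers. Of 22 genes of activated keratinocytes 15 fell and 1 rose (median -2.88), and of 33 genes of the cornified envelope and granular layer 22 fell and none rose (median -1.88). Krt6b, a keratin of wounded and hyperproliferative epidermis, stood at 2292, 1630, 3041 and 2093 CPM with isotype and 17.6, 21.8, 14.6 and 10.9 CPM with anti-IL1RAP (-7.12 ± 0.35, adjusted p = 0.000155). Krt17, a keratin often grouped with it, did not pass, at 1569, 600, 545 and 1233 CPM against 1073, 1318, 1151 and 976 CPM (0.19 ± 0.35, adjusted p = 0.74). Filaggrin, the Flg product that bundles keratin in the upper epidermis, fell from 1076, 745, 857 and 2278 to 43.2, 74.1, 50.8 and 32.8 CPM (-4.62 ± 0.46, adjusted p = 0.00171), and Casp14, the protease that matures it, from 274, 167, 202 and 462 to 40.2, 48.6, 33.3 and 34.3 CPM (-2.82 ± 0.33). The late envelope gene Lce3c (-5.15 ± 0.68, adjusted p = 0.00362) and Il24, a cytokine of activated keratinocytes (-5.79 ± 0.68, adjusted p = 0.00256), fell. Reads of Krt6a and Krt6b, and of Lce3 and Sprr2 genes, may be split between near-identical copies.

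The basal layer was divided. Of 17 basal keratinocyte genes 6 fell and 3 rose, among the latter Cd34, which is also in the list of hair follicle stem cell genes below. Lama3, a laminin chain of the basement membrane that anchors basal cells, fell from 77.1, 69.1, 65.7 and 63.6 CPM to 40.1, 29, 21.9 and 24.9 CPM (-1.25 ± 0.18, adjusted p = 0.00526). Krt14 fell (-1.28 ± 0.24, adjusted p = 0.0112), while its partner Krt5 did not pass (-0.36 ± 0.23, adjusted p = 0.315). Krt15, the keratin of quiescent basal and bulge cells, rose from 699, 179, 50.9 and 104 to 2294, 1921, 2114 and 1307 CPM (2.89 ± 0.77, adjusted p = 0.0384). The groups did not overlap for Krt15, but the isotype spread was wide, and the call was lost without isotype replicate 2 or 4 or any 1 anti-IL1RAP library (up to 0.0882). The count of basal genes that rose was 1 without isotype replicate 2 or 4 or anti-IL1RAP replicate 1, 2 or 3.

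Of 23 clade B serpins and cystatins tested, which are inhibitors of serine and cysteine proteases, 15 fell and 1 rose, with a median of -2.25. Cstdc5, a stefin A type cystatin, stood at 1511, 1421, 1385 and 1648 CPM with isotype and at 2.09, 14.8, 1.44 and 3.32 CPM with anti-IL1RAP (-8.10 ± 0.89, adjusted p = 0.00212). Stfa2 (-8.85 ± 0.74), Cstdc6 (-7.82 ± 0.83) and Serpinb3c (-2.52 ± 0.23) fell too, with adjusted p of 0.00151, 0.00188 and 0.00157. Stfa1 had 318 counts over the isotype libraries and 1 over the treated ones (411-fold lower, exact 95% counting interval 73.2 to 16300), and Csta3 384 and 1 (496-fold, 88.6 to 19700). These are members of a tandem family whose reads cannot be assigned with certainty. The 1 gene that rose (2 without isotype replicate 1 or 4) was Serpinb6e, with 1.28, 0, 0.145 and 0 CPM against 55, 31.2, 21.5 and 29.1 CPM (6.48 ± 0.95, adjusted p = 0.0052).

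A pair of promoters is shown for the letters of C/EBP, the factor family of Cebpb. Capitals mark TTGCNNAA, searched on both strands, in RefSeq windows on GRCm38.p6 as above, chr7:46715627-46715926, - strand for Saa3 and chr16:36276898-36277197, + strand for Stfa1.
Saa3: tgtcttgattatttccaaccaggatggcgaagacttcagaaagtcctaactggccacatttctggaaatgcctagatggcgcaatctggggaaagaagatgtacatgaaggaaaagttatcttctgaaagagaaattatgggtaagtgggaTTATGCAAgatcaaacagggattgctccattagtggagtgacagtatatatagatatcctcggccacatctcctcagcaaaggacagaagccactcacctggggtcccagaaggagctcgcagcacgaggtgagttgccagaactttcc
Stfa1: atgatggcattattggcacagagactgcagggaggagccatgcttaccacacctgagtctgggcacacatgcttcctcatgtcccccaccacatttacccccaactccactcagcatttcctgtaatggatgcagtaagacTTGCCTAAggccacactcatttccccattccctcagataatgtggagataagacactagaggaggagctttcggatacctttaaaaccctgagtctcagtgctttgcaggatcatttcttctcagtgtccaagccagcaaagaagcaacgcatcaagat
Each window holds 1 copy. Of 19 tested serpins and cystatins with a window 5 held the letters (26.3%), and these were 5 of the 12 with a window that fell. Of 18 tested acute phase genes with a window 7 did (38.9%), 3 of them among the 7 with a window that fell. The letters occur in 10.8% of all windows, in 10.6% of tested genes with a window, in 10.6% of all genes with a window that fell and in 12.1% of those that rose. Letters of a kappa-B site (for NF-kB) and of a gamma-activated site were searched too. The kappa-B letters occurred in 0.563% of tested genes with a window, 0.746% of those that fell and 0 members of the lists searched. With so rare a site, 0 in lists of 6 to 31 windows says little. The gamma-activated letters occurred in 8.43% of tested genes, 10.3% of those that fell and 0% to 15.4% of each list's tested members. These shares were not compared by a test. No binding was measured here.

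Proteases, junctions and lipids of the barrier were lower in part. Among 17 kallikreins and other epidermal proteases, some of which shed the outer cells by cutting desmosomes, 10 fell and none rose (median -1.14). Klk13 fell from 57.2, 15.7, 23.7 and 38.3 to 1.33, 3.09, 1.02 and 1.48 CPM (-4.26 ± 0.52, adjusted p = 0.0028) and the membrane protease Tmprss4 fell too (-1.26 ± 0.15, adjusted p = 0.00269). Among 24 desmosome and junction genes 12 fell and 1 rose (median -0.61), among them the desmosomal cadherins Dsg1b (-1.71 ± 0.20, adjusted p = 0.00272), Dsg1c (-3.37 ± 0.51) and Dsc1 (-1.41 ± 0.23). Of 23 genes of ceramide synthesis and lipoxygenases, which build the lipid seal of the outer layer, 11 fell and none rose (median -0.79). Cers3, which makes the very long ceramides, had 88, 60.7, 71.8 and 142 CPM against 31.2, 34.8, 32.4 and 22.5 CPM (-1.58 ± 0.27, adjusted p = 0.00858), and Degs2, which adds a hydroxyl group to them, fell as well (-2.27 ± 0.40, adjusted p = 0.00924). The 1 junction gene that rose was not called without isotype replicate 2, 3 or 4 or anti-IL1RAP replicate 3 or 4. The lower counts were 7, 6 and 6 for junctions without anti-IL1RAP replicate 1, 3 or 4, and 5, 6, 4 and 4 for barrier lipids without anti-IL1RAP replicate 1, 2, 3 or 4. Of 15 antimicrobial genes 5 fell, the defensin Defb14 with the lowest p (-2.08 ± 0.41, adjusted p = 0.0146, up to 0.0528 without anti-IL1RAP replicate 3 or 4), where isotype replicate 2 stood at 3.2 CPM near the treated libraries. That count was 8 without isotype replicate 2, 2 and 1 without anti-IL1RAP replicates 1 and 2, and 0 without replicate 3 or 4.

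Growth signals of keratinocytes moved in both directions. Of 19 EGF receptor ligands and feedback genes 4 fell and 3 rose. The ligand Ereg (epiregulin) fell from 51.7, 63.5, 62 and 168 to 14.1, 13.2, 16.7 and 10.7 CPM (-2.66 ± 0.40, adjusted p = 0.00543), and Errfi1, a feedback inhibitor that the active receptor induces, from 86.5, 109, 132 and 125 to 52.3, 48.1, 55.2 and 55.9 CPM (-1.10 ± 0.14, adjusted p = 0.00313). The ligand Btc (betacellulin) went the other way, from 6.89, 11.6, 6.66 and 16.8 to 42.6, 28.3, 47.3 and 29.7 CPM (1.82 ± 0.33, adjusted p = 0.0108). The higher count was 1 without anti-IL1RAP replicate 3 or 4. Fosl1, an AP-1 gene of activated keratinocytes, fell (-1.64 ± 0.26, adjusted p = 0.00695), 1 of 2 lower calls among 23 immediate early genes. That count was 4 without isotype replicate 3 and 1 without isotype replicate 1 or anti-IL1RAP replicate 3 or 4. Of 26 cell cycle genes 4 fell (median -0.69), a count that was 11 without isotype replicate 3, 1 without isotype replicate 4 and 0 without any other single library. In the list of inflammasome and gasdermin genes 4 of 21 fell, among them Pycard, the ASC adaptor (-0.90 ± 0.15, adjusted p = 0.00758), and Gsdma, the keratinocyte gasdermin (-1.79 ± 0.30, adjusted p = 0.00819).

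Of 25 genes of the sebaceous gland tested 9 rose and 1 fell, with a median of 1.68, the highest of any list described. Scd3, a desaturase of sebocytes, stood at 4.74, 2.39, 1.01 and 1.56 CPM with isotype and 217, 138, 102 and 110 CPM with anti-IL1RAP (5.85 ± 0.53, adjusted p = 0.00157). Awat2, which makes wax esters, rose from 2.78, 0.711, 0.386 and 0.781 to 58.9, 33.1, 23.9 and 31.7 CPM (4.96 ± 0.61, adjusted p = 0.00299), and Mc5r, the melanocortin receptor of the gland, from 2.05, 1.93, 3.28 and 3.07 to 16.6, 13.8, 9.45 and 10.3 CPM (2.28 ± 0.26, adjusted p = 0.00252). The treated and control libraries did not overlap for any of the 3, and syngeneic means were 130, 29.6 and 10.8 CPM. The 1 lower call was lost without any 1 anti-IL1RAP library and became 2 without isotype replicate 2 or 3. The count of higher genes was 5 without isotype replicate 4 or anti-IL1RAP replicate 2, 3 or 4. Steroid and lipid synthesis at large split, with 3 of 25 cholesterol and fatty acid genes higher and 3 lower. Insig1, the brake on sterol synthesis, rose (1.88 ± 0.35, adjusted p = 0.0118), and Hsd17b7, a late step of cholesterol synthesis, fell (-1.19 ± 0.19, adjusted p = 0.00646). The higher count there was 7 without isotype replicate 2, 1 without isotype replicate 3 and 1 without anti-IL1RAP replicate 2, and the lower count 1 without anti-IL1RAP replicate 2, 3 or 4.

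Stem cells of the hair follicle bulge are marked by Cd34 and Krt15, and those of the upper follicle by Lrig1. Of 12 hair follicle stem cell genes 5 rose and none fell, and their summed level was 354 to 1269 CPM with isotype and 2062 to 3071 CPM with anti-IL1RAP. Krt15, given above, made up the larger part of the sum in each anti-IL1RAP library, and its call was lost without most single libraries. The sums therefore say little about the other members. Cd34, which endothelium and fibroblasts also express, rose from 108, 43, 72.4 and 80 to 245, 225, 335 and 315 CPM (1.88 ± 0.27, adjusted p = 0.00511). Lrig1 rose from 55.9, 30.1, 42 and 32 to 72.5, 72.7, 78.4 and 71.7 CPM (0.88 ± 0.19, adjusted p = 0.0188, up to 0.0573 without anti-IL1RAP replicate 3 or 4). The count depended on the libraries. It was 10 without isotype replicate 1, the library with the high hair keratins, and fell to 2 without isotype replicate 2 or anti-IL1RAP replicate 1 or 2, 3 without isotype replicate 4 and 1 without anti-IL1RAP replicate 3 or 4. None of the 11 hair follicle and hair keratin genes tested was called by edgeR (5 under 0.05 before adjustment, 1 called by DESeq2). Of 8 melanocyte genes 2 rose, and 1 without any single library but isotype replicate 1. Sox10, a factor of melanocytes and Schwann cells, rose (0.97 ± 0.11, adjusted p = 0.00253), whereas the pigment enzyme Tyr was 1.07 to 1.96 against 0.224 to 1.16 CPM and did not pass.

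In the dermis, 10 of 24 fibroblast genes rose and none fell (median 0.97). Clec3b (tetranectin) went from 47.6, 21.8, 28.4 and 60 to 112, 203, 239 and 270 CPM (2.38 ± 0.38, adjusted p = 0.00703), Cd248 (endosialin) rose by 1.62 ± 0.27 (adjusted p = 0.00749) and the mesenchymal factor Prrx1 by 0.64 ± 0.09 (adjusted p = 0.00524). The groups did not overlap for these 3 genes, and without anti-IL1RAP replicate 2, 3 or 4 the count was 6. The fibrillar collagen genes Col1a1, Col1a2 and Col3a1 were not called. Col1a1 stood at 1206, 223, 209 and 631 CPM with isotype and at 781, 865, 2147 and 2311 CPM with anti-IL1RAP (1.43 ± 0.64, adjusted p = 0.171). Isotype replicate 1 held more Col1a1 than anti-IL1RAP replicates 1 and 2, and the 2 remaining treated libraries were the highest of all. Col1a2 (1.48 ± 0.59, adjusted p = 0.124) and Col3a1 (1.28 ± 0.59, adjusted p = 0.179) had the same layout. Adipocyte genes stood at 2563 to 8690 CPM in sum with isotype and 13310 and 12780 CPM in anti-IL1RAP replicates 3 and 4, and their part in the collagen values was not tested.

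Over all 34 collagen genes 5 rose and 1 fell (median 0.67), 17.6% called against 15.8% over all genes. Col4a5, a chain of basement membranes, rose from 7.66, 7.57, 5.89 and 5.47 to 17.4, 15.1, 14.3 and 12.9 CPM (1.17 ± 0.16, adjusted p = 0.00433). Col7a1, the anchoring fibril that keratinocytes make, fell from 223, 235, 198 and 297 to 162, 133, 133 and 128 CPM (-0.78 ± 0.15, adjusted p = 0.0122). The higher count ran from 1 (without anti-IL1RAP replicate 3 or 4) to 12 (without isotype replicate 1), with 2 without isotype replicate 2 or 4 and 3 without isotype replicate 3 or anti-IL1RAP replicate 1 or 2. Matrix proteins moved in both directions, 4 of 35 higher and 3 lower. Tnc (tenascin C), a matrix protein of wounds and fibrosis, fell from 252, 138, 110 and 114 to 27.4, 27.4, 12.9 and 15.8 CPM (-2.87 ± 0.37, adjusted p = 0.00331), while Tnxb (tenascin X), which spaces collagen fibrils in resting dermis, rose from 200, 140, 163 and 217 to 360, 335, 474 and 572 CPM (1.28 ± 0.22, adjusted p = 0.00808). Both tenascins were apart between groups, in opposite directions. Fn1 (fibronectin) did not pass, at 116 to 363 against 242 to 488 CPM. Without isotype replicate 2 or 4 or anti-IL1RAP replicate 2, 3 or 4, 2 matrix genes were higher.

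Of 30 matrix proteases and their inhibitors 8 rose and 3 fell. Those that fell were Mmp9, given above, Mmp13, a collagenase (61.3, 7.21, 20 and 8.41 CPM against 1.1, 0.375, 0.186 and 0.404 CPM, -5.52 ± 0.90, adjusted p = 0.00739), and Adamts1 (-0.76 ± 0.10, adjusted p = 0.00394). The tissue inhibitor Timp3 rose from 199, 176, 189 and 141 to 420, 381, 340 and 338 CPM (1.07 ± 0.14, adjusted p = 0.0036). Timp1, the inhibitor that inflammation induces, was 32.5, 12.2, 11.8 and 6.97 CPM against 10.2, 5.71, 3.72 and 9.92 CPM and did not pass (-1.10 ± 0.51, adjusted p = 0.179). The higher count was 2 without anti-IL1RAP replicate 3 or 4, 3 without isotype replicate 4, 4 without isotype replicate 2 or anti-IL1RAP replicate 1 or 2, and 5 without isotype replicate 3.

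In the TGF-beta pathway, a known driver of fibrosis, 5 of 30 genes rose and 3 fell. Tgfb1, the ligand, stood at 94.6, 90.3, 61.9 and 61.4 CPM against 81.9, 79.4, 64.2 and 71.4 CPM and did not pass (-0.05 ± 0.17, adjusted p = 0.859). Ltbp4, which stores the latent ligand in elastic fibres, rose from 145, 121, 110 and 127 to 278, 294, 275 and 332 CPM (1.23 ± 0.12, adjusted p = 0.00165), and Bmp3, an antagonist of BMP signals, by 1.22 ± 0.21 (adjusted p = 0.00862). Skil, a feedback repressor of SMADs that TGF-beta induces, fell from 40.2, 39.7, 36.7 and 43 to 17.4, 19.4, 20.4 and 16.2 CPM (-1.12 ± 0.10, adjusted p = 0.00157). The target Ccn2 was 59.6 to 86.8 against 70 to 154 CPM and did not pass. The higher count was 10 without isotype replicate 1 and 3 without anti-IL1RAP replicate 4, and the lower count 1 without anti-IL1RAP replicate 2, 3 or 4. Of 12 myofibroblast and smooth muscle genes 3 rose, among them Fap (1.47 ± 0.28, adjusted p = 0.0128) and Smtn (0.47 ± 0.09, adjusted p = 0.013). Acta2, the actin that defines myofibroblasts, did not pass, at 218, 332, 86.3 and 193 CPM against 365, 310, 158 and 248 CPM. In the Wnt pathway 3 of 28 rose and 2 fell, 17.9% called against 15.8% over all genes, with the secreted antagonist Sfrp4 up from 3.83, 0.965, 4 and 13.9 to 45.2, 46.1, 60.9 and 34.9 CPM (3.05 ± 0.67, adjusted p = 0.0202, 0.0579 without anti-IL1RAP replicate 3). The Wnt counts were unsteady, with 6 higher without isotype replicate 1, 1 higher without anti-IL1RAP replicate 2 or 4, no gene in either direction without anti-IL1RAP replicate 3, and 1, 1 and 0 lower without isotype replicate 4 and anti-IL1RAP replicates 2 and 4. Outside these lists, Porcn, the acyltransferase that every Wnt ligand needs for release, fell with one of the lowest p-values of all genes, from 38, 45.6, 42.8 and 39.7 to 12.3, 12.2, 12.1 and 11.7 CPM (-1.78 ± 0.09, adjusted p = 0.000155).

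Of 17 Schwann cell and nerve genes 10 rose and none fell (median 0.79), and the count stayed between 7 and 11 when each library was left out. Mbp, a major protein of myelin, went from 68.2, 73.1, 89.3 and 80 to 178, 274, 243 and 258 CPM (1.62 ± 0.16, adjusted p = 0.00165). Pmp22 (1.31 ± 0.11, adjusted p = 0.00151) and Mal (1.80 ± 0.17, adjusted p = 0.00161), further myelin genes, rose too. Their libraries did not overlap, and Pmp22 stood at 117, 110, 120 and 103 CPM against 235, 296, 292 and 293 CPM. With skeletal muscle content as a covariate 11 of the 17 were called. Of 21 endothelial genes 4 rose and none fell. Ackr1, the chemokine sink of venules, rose from 10.9, 7.41, 10.3 and 11.2 to 27.2, 29.5, 40.3 and 31 CPM (1.68 ± 0.18, adjusted p = 0.00183) and Tek, the angiopoietin receptor, from 9.07, 8.79, 9.7 and 8.53 to 14.2, 14.5, 16.7 and 18.2 CPM (0.82 ± 0.12, adjusted p = 0.00536). The endothelial count was 2 without anti-IL1RAP replicate 3 or 4, and the general marker Pecam1 did not pass (50.8 to 101 against 78.3 to 109 CPM). Of 18 adipocyte genes 3 rose, Lep (leptin) from 3.92, 4.42, 0.627 and 2.46 to 26.9, 21.7, 71.8 and 42.5 CPM (3.83 ± 0.61, adjusted p = 0.0069). None of the 23 skeletal muscle genes tested was called by edgeR or DESeq2 (2 under 0.05 before adjustment), with 0.00437% to 6.52% of counts in the isotype group.

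**Figure D5:**
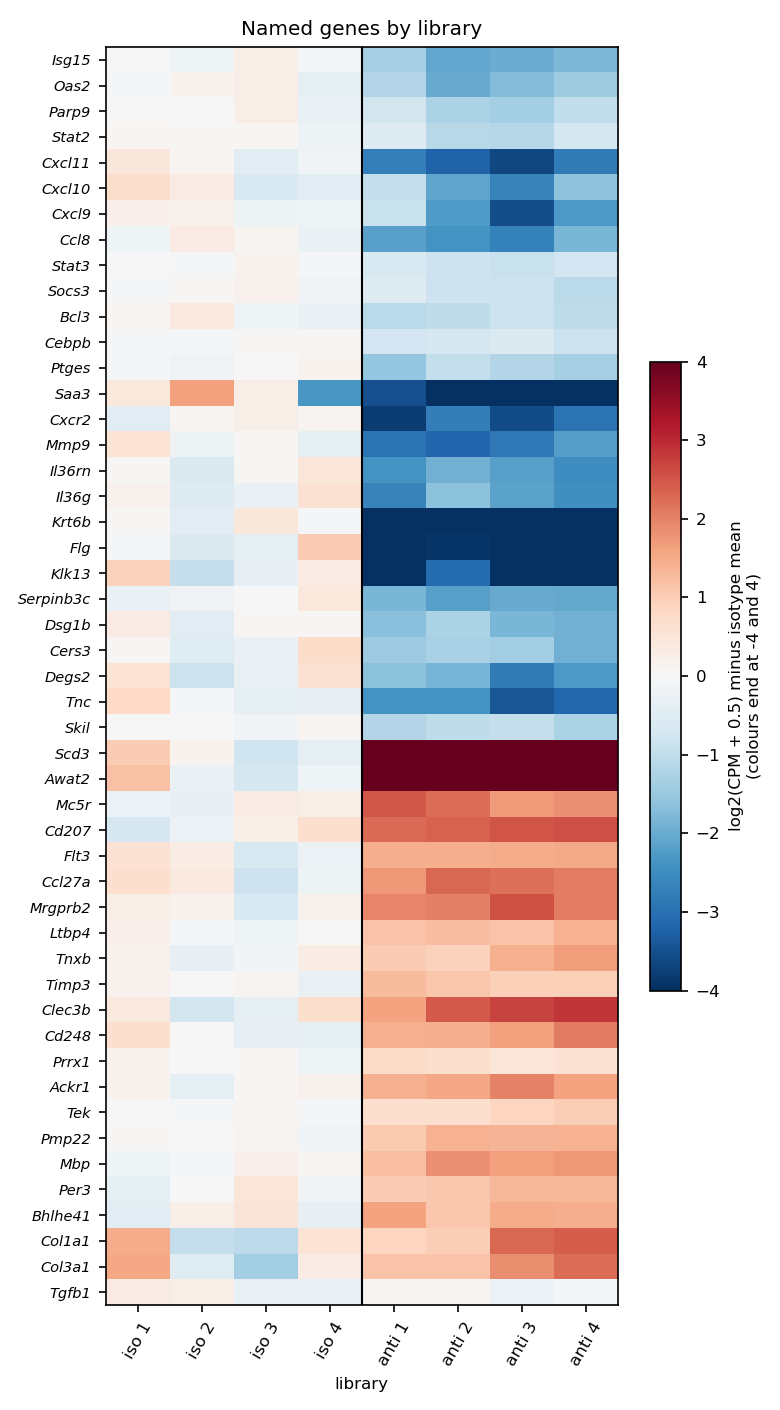
Log2(CPM + 0.5) of 49 named genes in each of the 8 libraries, minus the mean of the 4 isotype libraries (red higher, blue lower, colours end at -4 and 4). Genes of the upper block are lower in the 4 anti-IL1RAP libraries and those of the lower block higher, except Col1a1, Col3a1 and Tgfb1 at the foot, which were not called.

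Of 17 circadian genes tested 4 rose and 3 fell. Per3 rose from 25.2, 32, 46.4 and 30.4 to 66, 69.4, 82.9 and 82.7 CPM (1.17 ± 0.19, adjusted p = 0.00696) and Bhlhe41 by 1.39 ± 0.24 (adjusted p = 0.00828), while Nfil3, a repressor in the clock's output, fell (-1.14 ± 0.22, adjusted p = 0.014, 0.0504 without anti-IL1RAP replicate 4). Time of day at sampling is not given in the labels and was not tested. The higher count was 2 without isotype replicate 4 or anti-IL1RAP replicate 1, 3 or 4, and the lower count 1 and 0 without anti-IL1RAP replicates 3 and 4. Of the gene families, cytochromes P450 had 11 of 41 higher and none lower (median 0.48), and ABC transporters 8 of 39 higher and 2 lower. Zinc finger genes had 24 of 362 higher and 8 lower, 8.84% against 15.8% over all genes. None of 82 cytosolic ribosomal protein genes and none of 89 subunits of the mitochondrial respiratory chain was called by edgeR, with 5 of each under 0.05 before adjustment and 5 and 3 called by DESeq2.

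Several of the largest changes or lowest p-values belonged to genes outside the groups above. Tdh, which encodes threonine dehydrogenase, fell from 55.3, 50.8, 47.8 and 58.3 to 0.646, 0.468, 0.233 and 0.0898 CPM (-7.13 ± 0.41, adjusted p = 0.000298), and Rbp2, a retinol-binding protein, from 82.7, 70.4, 76.8 and 97.8 to 4.64, 8.49, 5.4 and 6.42 CPM (-3.71 ± 0.21, adjusted p = 0.000298). The steroid 5-beta-reductase gene Akr1d1 had 629 counts over the isotype libraries and 2 over the treated ones, 407-fold lower (exact 95% counting interval 112 to 3360). In syngeneic skin their means were 0.6, 6.02 and 0 CPM in that order. Among those that rose, Hamp2, a hepcidin gene, went from 0.0912, 0.203, 0.241 and 0.421 to 14, 6.59, 10.8 and 12.4 CPM (5.53 ± 0.42, adjusted p = 0.00136). Smarca2, an ATPase of the SWI/SNF complex, rose from 45.9, 42.9, 51 and 43.8 to 85.2, 94.4, 98.1 and 96 CPM (1.03 ± 0.09, adjusted p = 0.00151), with no overlap. Fmo5 (1.38 ± 0.12), a monooxygenase, Myo1d (1.28 ± 0.11), a class I myosin, and Pkn3 (0.90 ± 0.08), a kinase of the PKC-related group, rose with the same adjusted p of 0.00151. Nnat, counted with the adipocyte genes, rose by 6.05 ± 1.25 (adjusted p = 0.0168) but unevenly, with 7.49, 2.9, 98.6 and 99.8 CPM in the treated libraries, the 2 highest being those with the most adipocyte RNA. Sphkap (6.13 ± 0.95) and Krt8 (5.34 ± 1.24), a keratin of simple epithelia, rose from near 0, and the call of Krt8 was lost without isotype replicate 2 or 4 or anti-IL1RAP replicate 3 (up to 0.0587). The arylacetamide deacetylase-like genes Aadacl4 (5.56 ± 1.15) and AAdacl4fm3 (5.32 ± 1.16) rose in parallel, and reads of these similar genes may be shared, with AAdacl4fm3 at an adjusted p up to 0.0554 without anti-IL1RAP replicate 2 or 4.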

How the data were processed

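Gene counts per library were made and deposited by the authors as one table of raw counts. The submitters' processing notes name FastQC, Trimmomatic, STAR, featureCounts and the GRCm39 build, with versions not given in the sources used here, and per the labels' protocols the libraries were poly-A selected and prepared without strand marking, so antisense or overlapping genes cannot be told apart. Groups came from the sample labels, and the columns of the 8 libraries from their names. The fit used edgeR 4.0.16 in R 4.3.3 (filterByExpr with a minimum count of 10, TMM scaling, quasi-likelihood test of group, no covariate, Benjamini-Hochberg adjustment over 18684 genes, threshold 0.05). SE is the size of the log2 difference over the square root of F. Alternatives were DESeq2 1.42.0, other size factors and filters, a fit with the 4 syngeneic libraries, replicate blocks, content covariates and each library left out. The fit was tested on simulated data.

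Genes were named by rule (the 8 largest called changes and 6 lowest p in each direction, the 3 lowest p of each list, a fixed set and skin markers), and Arg1, Btc, Elane, Ifit1, Il18, Il18r1, Il18rap, Il1f10, Krt15, Ly6g, Mmp13, Myd88 and Traf6 were chosen after their values were seen. The comparison, the lists and the rule were chosen with earlier results of these data known. Lists share members (such as Casp14, Cd34, Irak2, Nos2, Stat3, Stfa1 and Stfa2), so their counts are not independent of each other. Counting intervals cover counting error only. Promoter windows came from RefSeq on GRCm38.p6, another build than that of the counts, and were matched by symbol. A few items are not reported here.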

Additional observations from a re-analysis of the deposited data

Results flagged for a closer look

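In each group of 4 libraries the highest or lowest value was compared with its nearest neighbour. This was done for every tested gene named above except Itgax, Plac8 and Skint1. A library was singled out where that gap, on a log2 scale, took up more of the whole range than Dixon's 95% critical value for 4 values allows. Of 314 gene and group pairs 20 passed, and chance alone passes about 1 in 20 groups. Values are CPM.

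In isotype replicate 1, AAdacl4fm3 stood at 1.55 CPM and Aadacl4 at 2.83 CPM, against 0 and at most 0.18 CPM in the other 3 isotype libraries, and Sphkap at 0.0456 CPM against 0. Isotype replicate 2 was low in Defb14, at 3.2 CPM against 12.9 to 13.1 CPM, and high in Pdcd1, at 19.0 CPM against 5.5 to 6.34 CPM. Isotype replicate 3 was low in the mast cell gene Mrgprb2, at 1.06 CPM against 2.16 to 2.28 CPM. Isotype replicate 4 was low in Fn1 (116 against 321 to 363 CPM), Stat2 (195 against 231 to 238 CPM), Tapbp (577 against 661 to 665 CPM) and Krt8 (0 against 0.241 to 0.274 CPM).

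Anti-IL1RAP replicate 1 was low in Pmp22, at 235 CPM against 292 to 296 CPM, and held the 2 counts of Akr1d1 (0.076 CPM). Anti-IL1RAP replicate 2, the library with Y-linked counts, was the highest of its group in Il36b (9.65 against 4.56 to 5.05 CPM) and Il1rn (61.5 against 44.3 to 46.6 CPM), and held the single counts of Csta3 and Stfa1 (0.0312 CPM each). Anti-IL1RAP replicate 3 was high in Mrgprb2 (13.3 against 8.63 to 9.2 CPM) and Lrig1 (78.4 against 71.7 to 72.7 CPM) and low in Il33 (31.9 against 41.8 to 43.3 CPM). Anti-IL1RAP replicate 4 was low in the desmosomal gene Dsc1, at 77.2 CPM against 99.4 to 101 CPM.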

How the results depend on the processing

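The number of genes called moved by over 1.5 times under DESeq2, which called 4583 (2257 higher, 2326 lower). With a replicate block by the number in the sample titles edgeR called 1570 (800 higher, 770 lower). With a replicate block by the number in the descriptions it called 0 (0 higher, 0 lower), with 3881 genes at an unadjusted p under 0.05. The labels do not say whether equal numbers pair the samples. Deviations of same-numbered libraries correlated at 0.264, -0.0528, 0.36 and 0.0518 by title and at 0.264, -0.398 and 0.29 by description. By title 1 of 4 numbers matched its own best, and by description 1 of 3. So few correlations, between libraries that differ in muscle and hair content, cannot decide whether the samples were paired. By description, isotype number 2 and anti-IL1RAP number 5 have no partner, so these libraries do not inform the group difference in that fit. Few degrees of freedom are then left, and 0 calls there cannot tell whether the result depends on pairing. Leaving out each library in turn gave 1342 to 3180 calls, 663 to 1647 higher and 679 to 1740 lower. Without isotype replicate 4, 39.3% of the calls were higher, against 50% over all 8 libraries. Other scaling, filters, the syngeneic libraries in the fit, or muscle or hair content as a covariate gave 2378 to 3804 calls.

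Of the 130 called genes named above, all 130 kept the call under DESeq2, other size factors and the muscle covariate, 115 under the block by title and none under the block by description. They numbered 110 to 128 when a library was left out, and 112 without isotype replicates 1 and 3 together, an alternative chosen after seeing the data. None turned direction. Differences that did were all uncalled in the fit of 8 libraries. For Cxcl1 the value was 0.076 and 0.12 with the block by title and by description, 0.53 and 0.50 with the muscle and hair covariates, 0.53 without isotype replicates 1 and 3, and -0.61 to 0.76 without single libraries. For Il1rl1 it was 0.047 and 0.011 with the covariates, 0.11 without both isotype libraries and -0.45 to 0.17 without single libraries. For Ptprc it was 0.22 with the block by description, 0.017 with the muscle covariate and -0.32 to 0.12 without single libraries. For Tgfb1 it was 0.071 with the block by description, 0.029 and 0.0085 with the covariates and -0.18 to 0.058 without single libraries. Leaving out single libraries gave -0.058 to 0.38 for Fn1 and -0.027 to 0.51 for Krt17. The cause was not tested. Counts near 0 limit the precision of the largest falls.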

Other observations

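Further gene groups are given by their counts. Of 15 suppressors and signalling genes of type 1 cytokines 6 fell and none rose (median -0.27), with 3 lower without anti-IL1RAP replicate 2 or 3. Of 23 glycolysis and hypoxia genes 4 fell (17.4% called against 15.8% over all genes), and between 0 and 3 did when any 1 library was left out. Of 16 immune checkpoint genes 3 fell and 1 rose. Without isotype replicate 2 or anti-IL1RAP replicate 2, 3 or 4 a single gene fell there, and without anti-IL1RAP replicate 1 it was 5. The 1 rise was lost without any 1 library other than isotype replicate 1 or anti-IL1RAP replicate 1. Solute carriers fell more often than they rose (42 lower and 26 higher of 278), and the opposite held for G protein-coupled receptors (3 lower and 10 higher of 66), with 15.8% of all genes called. None of these differences between families was tested.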
